A study of Homo sapiens with 12 samples.

Results

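A set of 59 genes differed at least 2-fold between a breast cancer line that carries extra thyroid hormone receptor β (TRβ, encoded by THRB) and its empty vector counterpart, and did so in the same direction with and without thyroid hormone. They were selected on measured values. In a table of normalized counts the mean of the 3 libraries of each group was taken, and a gene was kept when the TRB over EV ratio was at least 2 both with T3 and with vehicle, or at most 0.5 both times, with the higher group mean at 20 or more in each treatment. THRB itself and symbols beginning with IFI, KRT, SERPINB, DSG or MT- were left out. Of the 56832 genes in the files, 12454 met the level and symbol criteria, and 41 of them were selected as higher and 18 as lower in TRB.

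The libraries are from MDA-MB-468, a basal-like human breast cancer line, made to express TRβ stably from the pCDH-TRB vector or carrying the empty pCDH vector. The 4 groups of 3 RNA-seq libraries were TRB cells with T3, EV cells with T3, TRB cells with vehicle and EV cells with vehicle. T3 was given at 10 nM for 24 hours, vehicle was NaOH for the same time, and all cells had first been kept for 24 hours in hormone-stripped medium. The labels do not say whether each line is a clone or a mixed population, and each vector is represented by 1 line, so an effect of the receptor and a difference between the 2 lines cannot be told apart. Whether replicates are separate cultures is not stated either; the tests see only the variation among the deposited libraries, part of which could be technical.

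T3 is the active thyroid hormone. TRβ sits on DNA with or without it, usually as a dimer with a retinoid X receptor, and recruits corepressors when empty and coactivators when hormone is bound. A second signalling system touched by these genes is the type I interferon response, in which interferon receptors signal to transcription factors that bind the interferon-stimulated response element of antiviral genes such as MX1 and the OAS family.

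THRB had 2726, 3018 and 2899 normalized counts in TRB cells with T3, against 350, 333 and 333 in EV cells with T3. With vehicle it had 1263, 1192 and 1237 in TRB cells, against 383, 374 and 389 in EV cells, so every TRB library lay above every EV library. Gene totals ran from 10323437 to 11955825 counts in the T3 libraries and from 4241863 to 8904361 in the vehicle libraries. The mitochondrial rRNA MT-RNR2 took 0.0443 to 0.0752% of gene counts with T3 and 0.243 to 1.8911% with vehicle, so depth and this RNA move with treatment. Depth also varied between the lines with vehicle, at 7578831, 8904361 and 7311623 counts in TRB cells and 4241863, 6336559 and 7851876 in EV cells. EV vehicle replicate 1 was the shallowest library and had the highest share of MT-RNR2. KRT5 and EGFR, which mark basal-like breast cancer cells, averaged 224 and 4270 CPM (counts scaled to library size) in TRB cells with T3, 999 and 5270 CPM in EV cells with T3, 900 and 4420 CPM in TRB cells with vehicle, and 1160 and 5510 CPM in EV cells with vehicle. Among other basal markers, group means ran from 122 to 551 CPM for KRT17 and from 97.2 to 178 for ITGB4. They ran from 11.7 to 71 CPM for KRT14 and from 0.506 to 1.05 for TP63, and SOX10 had 2 counts in all. The luminal keratins KRT8 and KRT19 were high too, with group means of 1440 to 1560 and 1640 to 2030 CPM. Of the fibroblast, leukocyte and endothelial markers tried, COL1A2, LUM, DCN, LYZ and NKG7 had 0 counts in all 12 libraries, whereas COL1A1 averaged 20.3 CPM in TRB cells with T3, 15 in EV cells with T3, 17 in TRB cells with vehicle and 16.2 in EV cells with vehicle, and ENG 27.1, 25.7, 21.4 and 23.6 CPM in the same groups; FAP had 151 counts in all. CD14 averaged 186 CPM in TRB cells with T3, 51.3 in EV cells with T3 and less in both lines with vehicle, while the other leukocyte markers tried reached at most 0.363 CPM.

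Sequences are shown for the genes whose results below rest on a shared locus or a shared family. MX1, BST2 and RSAD2 are interferon-stimulated members, all lower in TRB. The stretches are from RefSeq promoter windows (GRCh38.p14, the 250 bases before a transcript start), cut to 120 bases around the motif GAAANNGAAA, the core of the interferon-stimulated response element, which is in capitals, and in MX1 and RSAD2 is written as its reverse complement because it lies on the other strand. For MX1 (chr21:41431800-41431919, plus strand) 1 of 3 listed windows holds it and was chosen for that reason. BST2 is at chr19:17405693-17405812, minus strand, where a pair of matches overlap, and RSAD2, with 1 of its 2 windows likewise chosen, at chr2:6877577-6877696, plus strand. In the GENCODE annotation the MX1 and RSAD2 stretches lie inside the genes, which start at 41420304 and 6865806.
MX1: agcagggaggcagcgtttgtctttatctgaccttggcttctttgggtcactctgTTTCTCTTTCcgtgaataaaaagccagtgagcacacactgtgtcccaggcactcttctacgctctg
BST2: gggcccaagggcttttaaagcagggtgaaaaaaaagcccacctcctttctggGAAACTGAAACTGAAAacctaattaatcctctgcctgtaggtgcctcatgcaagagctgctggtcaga
RSAD2: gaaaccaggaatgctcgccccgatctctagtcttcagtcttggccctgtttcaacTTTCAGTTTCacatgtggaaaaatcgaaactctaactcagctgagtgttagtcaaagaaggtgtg

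Of the 18 members lower in TRB, 14 had RefSeq windows, and in 3 of these 14 (21.4%) a window held GAAANNGAAA on either strand, against 0 of the 27 windowed members higher in TRB and 3.71% of all 27305 genes with a window. The hexamer AGGTCA, the half-site that thyroid hormone and other nuclear receptors recognise, was present on either strand for 6 of the 14 (42.9%), namely CYSLTR1, MX1, GFI1, IL7R, ALPP and ALPPL2, and for 3 of the 27 (11.1%), against 14.6% of all genes. A match of letters is a description and does not show that a factor binds. ALPP and ALPPL2, neighbouring alkaline phosphatase genes, hold AGGTCA (capitals) 96 bases before the RefSeq start in both, within nearly the same 30 bases. ALPP is at chr2:232378643-232378672, plus strand, and ALPPL2, listed by RefSeq as ALPG, at chr2:232406736-232406765, plus strand. In the GENCODE annotation the ALPP stretch lies inside the gene, which starts at 232378534, and the ALPPL2 stretch lies before the gene. Over the whole 250 bases the pair were identical at 85.3% of aligned positions.
ALPP: cagtgtggcttcAGGTCAagaggctgggca
ALPPL2: cagtgtggcttcAGGTCAagaggctgggcg

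COL4A3 and COL4A4 lie head to head, and the 111 bases between their annotated GENCODE starts (chr2:227164454-227164564, plus strand) belong to neither gene. They are shown because both genes were selected in the same direction, and are read from the RefSeq window of COL4A3.
COL4A3: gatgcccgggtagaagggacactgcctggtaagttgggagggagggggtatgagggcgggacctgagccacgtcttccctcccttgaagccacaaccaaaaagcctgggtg

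The 41 genes higher in TRB were led by STON2, stonin 2, an adaptor that sorts synaptotagmin during clathrin-mediated endocytosis (chr14:81260656-81436465, minus strand, hg38). STON2 had 116, 92 and 109 normalized counts in TRB cells with T3, against 4, 1 and 5 in EV cells with T3. Its vehicle values were 37, 27 and 39 in TRB cells, against 0, 3 and 3 in EV cells. The ratios were 31.7 with T3 and 17.2 with vehicle, and they rest on few EV reads: 13 raw counts summed over the 3 EV T3 libraries and 5 over the 3 EV vehicle libraries. EV libraries thus held little STON2 RNA in either treatment, and TRB libraries held more of it with T3. In bulk RNA, fewer cells that express a gene and less RNA per cell cannot be told apart.

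**Figure D1:**
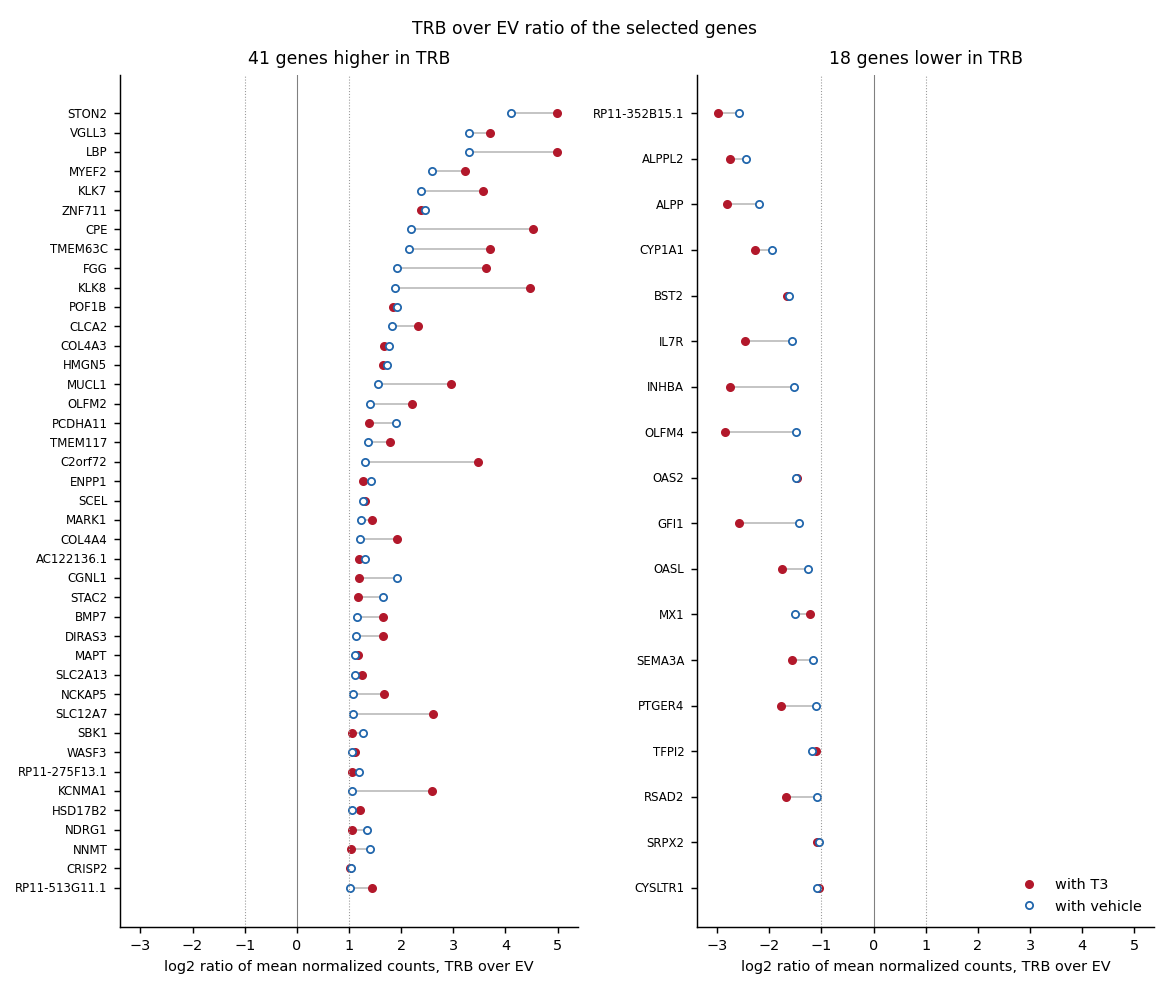
TRB over EV ratio of mean normalized counts (log2) for each of the 59 selected genes, with T3 (filled red) and with vehicle (open blue), 3 libraries per group. Dotted lines mark a 2-fold ratio, the selection threshold; STON2 and LBP reach 31.7 and 31.6 with T3, while ZNF711, POF1B, COL4A3 and HMGN5 have nearly the same ratio in both treatments.

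Secreted and extracellular products followed. LBP, the lipopolysaccharide-binding protein of the acute phase response, had 148, 190 and 167 in TRB cells with T3, against 3, 9 and 4 in EV cells with T3. It had 38, 42 and 39 in TRB cells with vehicle, against 2, 6 and 4 in EV cells with vehicle, for ratios of 31.6 with T3 and 9.92 with vehicle. CPE, carboxypeptidase E, which trims prohormones in secretory granules, had 261, 250 and 231 in TRB cells with T3, against 10, 12 and 10 in EV cells with T3, and 42, 34 and 47 in TRB cells with vehicle, against 8, 11 and 8 in EV cells with vehicle (ratios 23.2 with T3 and 4.56 with vehicle). LBP and CPE were low in all 6 EV libraries and higher in TRB cells with T3 than in TRB cells with vehicle.

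FGG, the fibrinogen γ chain, had ratios of 12.4 with T3 and 3.81 with vehicle. MUCL1, a small breast mucin, had 7.74 and 2.95, OLFM2, a secreted olfactomedin, had 4.6 and 2.66, and BMP7, a bone morphogenetic protein, had 3.13 and 2.22. The basement membrane collagen chains COL4A3 and COL4A4 had 3.18 and 3.81 with T3 and 3.39 and 2.31 with vehicle. CRISP2, a cysteine-rich secretory protein, lay just inside the threshold at 2.03 and 2.06.

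Among nuclear members, VGLL3, a cofactor of TEAD transcription factors, had 36, 40 and 28 in TRB cells with T3, against 2, 5 and 1 in EV cells with T3. With vehicle it had 54, 40 and 35 in TRB cells, against 6, 6 and 1 in EV cells (ratios 13 with T3 and 9.92 with vehicle). ZNF711, a zinc finger transcription factor, had 50, 35 and 40 in TRB cells with T3, against 10, 7 and 7 in EV cells with T3, and 40, 60 and 54 in TRB cells with vehicle, against 15, 10 and 3 in EV cells with vehicle (ratios 5.21 with T3 and 5.5 with vehicle). TRB and EV libraries did not overlap for VGLL3 or ZNF711, but the selection used these values, so nothing is read from that.

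MYEF2, a repressor of myelin gene transcription first described in mouse, had ratios of 9.38 with T3 and 6.0 with vehicle, on 10 and 12 raw counts summed over the EV libraries. HMGN5, a nucleosome-binding protein, had 3.16 and 3.3.

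Epithelial and cornification genes included the kallikrein-related serine proteases KLK7 and KLK8, which cleave desmosomal and other extracellular proteins in skin. KLK8 had 879, 967 and 876 in TRB cells with T3, against 34, 44 and 45 in EV cells with T3. Its vehicle values were 72, 78 and 67 in TRB cells, against 19, 15 and 25 in EV cells (ratios 22.1 with T3 and 3.68 with vehicle). KLK7 had 300, 305 and 290 in TRB cells with T3, against 30, 19 and 27 in EV cells with T3, and 49, 44 and 59 in TRB cells with vehicle, against 6, 10 and 13 in EV cells with vehicle (ratios 11.8 with T3 and 5.24 with vehicle). POF1B, an actin-binding protein of epithelial junctions, had ratios of 3.58 with T3 and 3.78 with vehicle, CLCA2, a chloride channel accessory protein, had 5.0 and 3.55, SCEL, a precursor of the cornified envelope, had 2.48 and 2.42, and CGNL1, a tight junction scaffold, had 2.27 and 3.81.

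Membrane transport members were TMEM63C, of a mechanosensitive channel family (13.1 with T3, 4.44 with vehicle), KCNMA1, the large-conductance potassium channel (6.03 with T3, 2.08 with vehicle), SLC12A7, a potassium-chloride cotransporter (6.08 with T3, 2.1 with vehicle), and SLC2A13, a myo-inositol transporter (2.38 with T3, 2.16 with vehicle). Cytoskeletal and signalling members were MAPT, the microtubule protein tau (2.26 with T3, 2.18 with vehicle), MARK1, a kinase that phosphorylates microtubule-associated proteins (2.72 with T3, 2.36 with vehicle), WASF3, an actin regulator (2.18 with T3, 2.08 with vehicle), and the imprinted RAS-family gene DIRAS3 (3.14 with T3, 2.19 with vehicle). Metabolic enzymes were HSD17B2, which oxidises estradiol to estrone (2.31 with T3, 2.07 with vehicle), NNMT, nicotinamide N-methyltransferase (2.05 with T3, 2.66 with vehicle), and ENPP1, an ectonucleotide pyrophosphatase (2.42 with T3, 2.67 with vehicle).

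The remaining members higher in TRB were C2orf72 (11.1 with T3 and 2.49 with vehicle), PCDHA11, TMEM117, AC122136.1, STAC2, NCKAP5, SBK1, NDRG1, RP11-275F13.1 and RP11-513G11.1, with ratios between 2.03 and 3.74. PCDHA11, a protocadherin, shares its last exons with the other genes of its cluster, so its reads are uncertain. NDRG1 was uneven within TRB cells, at 67, 161 and 117 with T3 and 92, 107 and 197 with vehicle. RP11-513G11.1 and CRISP2 were the selected genes nearest the threshold, and just outside it were NES (33.2 with T3 but 1.99 with vehicle) and RUNDC3B (2.96 with T3, 1.97 with vehicle).

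Among the 18 genes lower in TRB, 5 are interferon-stimulated: MX1, OAS2, OASL, RSAD2 and BST2, which act in antiviral defence as a dynamin-like GTPase, 2′-5′ oligoadenylate synthetase family members, viperin and tetherin. MX1 had 786, 868 and 792 in TRB cells with T3, against 1498, 2209 and 1994 in EV cells with T3. With vehicle it had 569, 572 and 573 in TRB cells, against 1722, 1629 and 1548 in EV cells (ratios 0.429 with T3 and 0.35 with vehicle). BST2 had 85, 90 and 108 in TRB cells with T3, against 221, 368 and 305 in EV cells with T3, and 73, 68 and 87 in TRB cells with vehicle, against 233, 241 and 231 in EV cells with vehicle (ratios 0.317 with T3 and 0.323 with vehicle). TRB and EV libraries did not overlap for either gene, again by values the selection used. EV T3 replicate 1 was the lowest EV T3 library for both.

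OAS2 had ratios of 0.363 with T3 and 0.357 with vehicle, OASL 0.298 and 0.419, and RSAD2 0.312 and 0.469. The rule removed 4 further interferon-induced genes by their symbols, all lower in TRB both times: IFI27, IFI44L, IFI6 and IFIT1, with ratios between 0.122 and 0.312. It also removed KRT14, KRT16, KRT9, SERPINB2 and SERPINB7, lower both times too; without the symbol criterion, and with THRB still left out, 27 genes would be lower and 41 higher.

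Alkaline phosphatases gave the lowest ratios with vehicle among the members placed in the annotation. ALPP, placental alkaline phosphatase, had 64, 47 and 44 in TRB cells with T3, against 367, 342 and 382 in EV cells with T3. Its vehicle values were 76, 57 and 60 in TRB cells, against 307, 268 and 306 in EV cells (ratios 0.142 with T3 and 0.219 with vehicle). ALPPL2, the germ cell form, had 8, 3 and 4 in TRB cells with T3, against 26, 33 and 42 in EV cells with T3, and 2, 4 and 8 in TRB cells with vehicle, against 25, 25 and 26 in EV cells with vehicle (ratios 0.149 with T3 and 0.184 with vehicle). The ALPP and ALPPL2 coding sequences are near-identical copies, so how their reads were divided is uncertain.

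Ligands and receptors lower in TRB were INHBA, the activin A subunit, IL7R, the interleukin 7 receptor, PTGER4, a prostaglandin E2 receptor, CYSLTR1, a leukotriene receptor, and SEMA3A, a secreted semaphorin. INHBA had 14, 13 and 11 in TRB cells with T3, against 86, 77 and 93 in EV cells with T3, and 54, 40 and 31 in TRB cells with vehicle, against 114, 117 and 131 in EV cells with vehicle (ratios 0.148 with T3 and 0.345 with vehicle). OLFM4, a secreted olfactomedin of epithelial progenitors, had 17, 14 and 15 in TRB cells with T3, against 106, 124 and 101 in EV cells with T3, and 44, 42 and 37 in TRB cells with vehicle, against 114, 116 and 114 in EV cells with vehicle (ratios 0.139 with T3 and 0.358 with vehicle). For INHBA and OLFM4 the TRB libraries with T3 were the lowest of all 12.

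IL7R had ratios of 0.182 with T3 and 0.34 with vehicle, PTGER4 0.293 and 0.465, SEMA3A 0.337 and 0.449, and CYSLTR1 0.487 and 0.474. CYP1A1, a cytochrome P450 induced through the aryl hydrocarbon receptor, had 0.207 and 0.26, and GFI1, a zinc finger repressor, had 0.167 and 0.371. TFPI2, a protease inhibitor (0.466 with T3, 0.439 with vehicle), and SRPX2, a secreted sushi-repeat protein (0.472 with T3, 0.482 with vehicle), had ratios near the threshold, as did CYSLTR1. Just outside it were SAA1 (0.365 with T3 and 0.514 with vehicle) and TMPRSS11E (0.27 with T3, 0.517 with vehicle). RP11-352B15.1 had the lowest ratios, 0.126 and 0.167, and the files give it no further annotation.

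**Figure D2:**
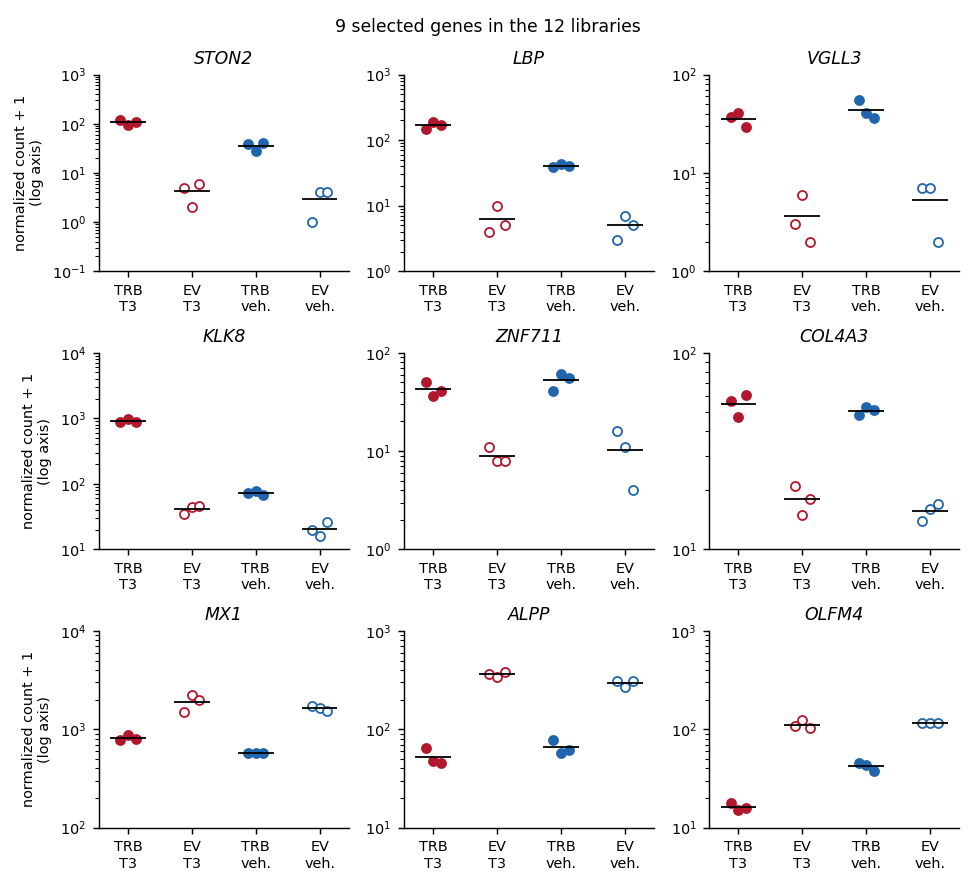
Normalized count plus 1 (log axis) in each of the 12 libraries for 9 selected genes; filled points are TRB and open points EV, red T3 and blue vehicle, and bars are means of 3 libraries. STON2, LBP and KLK8 are higher in TRB cells with T3 than in TRB cells with vehicle, VGLL3, ZNF711 and COL4A3 were not called for T3 in either line, and OLFM4 is lowest in TRB cells with T3 at 14 to 17.

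The libraries of the 2 lines did not overlap with T3 for any of the 59 genes, nor with vehicle for 58 of them, the exception being RP11-513G11.1. Across the 12454 eligible genes, 49.2% did not overlap between the lines with T3 and 31.4% with vehicle, in either direction. The selection used these values, so nothing is read from that count. As a description, the selection was repeated with 1 replicate number of all groups held out, and its genes were read in the held-out libraries. All 12 libraries had chosen the 59 genes, and the held-out libraries are from the same 2 lines, so these counts are not independent support. The share of all genes that kept their direction was not computed. Without replicate 1, 43 higher and 19 lower genes were selected, and 41 and 19 of them kept their direction in both treatments in the held-out libraries, 23 and 13 by at least 2-fold both times. Without replicate 2 the selections were 41 and 24 genes, of which 40 and 22 kept their direction and 28 and 12 passed 2-fold. Without replicate 3 they were 40 and 19 genes, all of which kept their direction, and 24 and 14 passed 2-fold.

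Positions were found for 56 of the 59 genes, of which 38 higher and 17 lower in TRB were protein coding and 1, AC122136.1, was a long intergenic RNA. The other 3 are clone names beginning with RP11-. Chromosome 2 held 8 of the 56 (14.3%), against 6.7% of placed eligible genes, and the X chromosome held 5 (8.93%, against 3.17%). Chromosome 12 also held 5 (8.93%, against 5.1%), and chromosome 13 held 3 (5.36%, against 1.71%). Each of these chromosomes held members of both directions, with 5 higher and 3 lower on chromosome 2 and 3 higher and 2 lower on X. Whether any chromosome held more than its share was not tested.

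Only 8 of the 56 had another member of the same direction with its start within 1 Mb. They formed 4 pairs: KLK7 with KLK8, COL4A3 with COL4A4, ZNF711 with POF1B, and ALPP with ALPPL2. No tested gene lay between the starts within any pair. No member of the opposite direction lay within 1 Mb of another; the nearest such pair, C2orf72 and ALPP, had starts 1.34 Mb apart.

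Genes near members mostly did not move with them. Of the 610 tested genes whose nearest member was within 1 Mb, 36 (5.9%) were called in the member's direction both with T3 and with vehicle and 18 in the opposite direction, where a call is an adjusted p below 0.05 in edgeR's quasi-likelihood test. Across all 14549 tested genes, 3.75% were called higher and 3.37% lower both times. With T3 alone 21.0% of genes were called higher and 19.7% lower in TRB, and with vehicle alone 7.86% and 7.4%. The median log2 fold change of the 397 genes near members higher in TRB was 0.05 with T3 and 0.01 with vehicle, and of the 213 near members lower in TRB it was -0.01 and -0.03. Within 0.1 Mb, a distance chosen after seeing the data, 9 of 50 were called in the member's direction both times: KLK5, KLK6, CRISP3, FGB, MSMO1, ODF2L, SH3BGRL, OAS1 and OAS3. RNF144A, 51.6 kb from RSAD2, was called in the opposite direction both times (log2 fold changes of 0.24 with T3 and 0.77 with vehicle).

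The KLK locus was the densest. KLK7 (chr19:50976482-50984099) and KLK8 (chr19:50996007-51002711), both on the minus strand, start 18.6 kb apart. Between TRB and EV, the adjacent KLK6 was 1.40 higher on the log2 scale with T3 and 0.31 with vehicle, and KLK5 was 1.1 and 0.51 higher, all with an adjusted p below 0.05 (edgeR). KLK10 was 1.55 higher with T3 (adjusted p = 1.3e-34) but only 0.11 with vehicle (adjusted p = 0.463). KLK5, KLK6, KLK7 and KLK8 were thus all higher in TRB in both treatments.

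ZNF711 (chrX:85244032-85273362, plus strand) and POF1B (chrX:85277396-85379743, minus strand) converge, with starts 135.7 kb apart and neither gene overlapping the other. Of their neighbours within 1 Mb, CHM was 0.21 higher with T3 and 0.26 with vehicle (log2; adjusted p = 0.0227 and 0.0326, edgeR). HMGN5, another member, lies 4.04 Mb from ZNF711 on the same chromosome. SH3BGRL, whose start is 1 base from that of HMGN5 on the other strand, was 0.61 higher with T3 and 0.87 with vehicle (adjusted p = 2.63e-11 and 8.01e-14, edgeR). The strand setting of the counting is not given, so reads at such shared starts cannot be assigned with certainty.

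COL4A4 (chr2:227002711-227164453, minus strand) and COL4A3 (chr2:227164565-227314792, plus strand) lie on either side of the 111 bases shown above. COL4A3 had 56, 46 and 60 in TRB cells with T3, against 20, 14 and 17 in EV cells with T3. With vehicle it had 47, 52 and 50 in TRB cells, against 13, 15 and 16 in EV cells. COL4A4 had 38, 37 and 43 in TRB cells with T3, against 10, 8 and 13 in EV cells with T3, and 39, 30 and 44 in TRB cells with vehicle, against 28, 8 and 13 in EV cells with vehicle. TRB and EV libraries did not overlap for either gene, but the selection used these values, so nothing is read from that. For COL4A4 with vehicle the margin was small, 30 in the lowest TRB library against 28 in EV vehicle replicate 1. SLC19A3, a thiamine transporter whose start is 553.5 kb from that of COL4A3, was 3.44 higher with T3 and 1.64 with vehicle on the log2 scale and was called both times; its mean was under 20 with vehicle, so it was not selected.

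STON2 had no other member within 1 Mb. Its nearest tested neighbours SEL1L, 97.4 kb away, and GTF2A1, 215.1 kb away, differed by 0.10 and -0.05 with T3 and by 0.05 and 0.13 with vehicle (log2, TRB over EV), and none was called. C14orf145, the third tested gene within 1 Mb, was called lower in TRB both times (-0.43 with T3, -0.36 with vehicle). Of 15 tested genes of a list for chromosome band 14q31 and its surroundings, PTPN21 and EML5 were called higher both times, beside STON2 itself. DIO2, the deiodinase that activates thyroid hormone, and SNW1 were called lower with T3. The median of this list was 0.09 with T3 and 0.05 with vehicle.

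**Figure D3:**
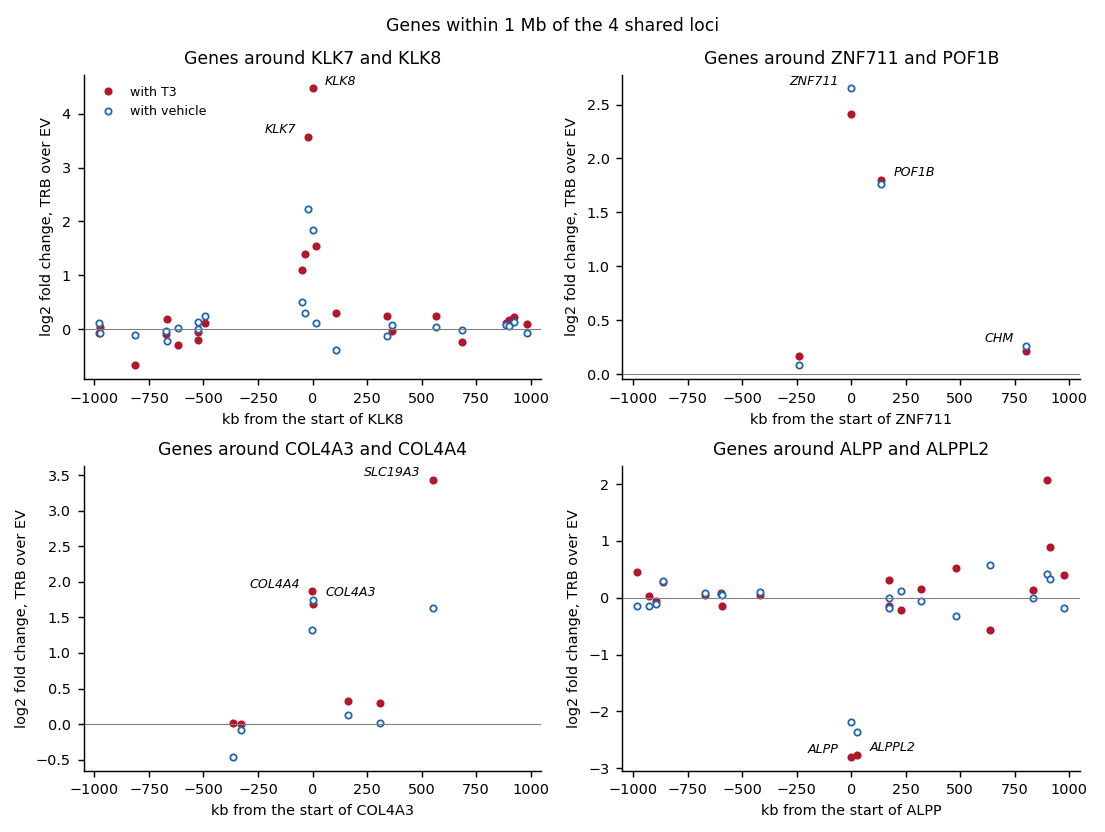
Log2 fold change, TRB over EV, of tested genes against the distance of their starts from KLK8, ZNF711, COL4A3 or ALPP, with T3 (filled red) and vehicle (open blue). Around KLK7 and KLK8 the high values span adjacent genes, while around the ALPP pair (-2.80 and -2.77 with T3) the adjacent genes lie near 0.

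Several other members had a relative beside them, and some of these relatives did not differ in both treatments. FGG lies 50 kb from FGB and 22.2 kb from FGA, the genes of the other fibrinogen chains. FGB was 0.63 higher with T3 and 0.56 with vehicle, and FGA 3.29 and 1.09, the last not called (adjusted p = 0.312, edgeR). CRISP3, beside CRISP2, was 0.87 and 0.90 higher. OAS1 was 1.15 and 0.44 lower (log2 fold changes of -1.15 and -0.44) and OAS3 0.69 and 0.54 lower (-0.69 and -0.54), beside OAS2. MX2, 58.4 kb from MX1, had -0.01 with T3 (adjusted p = 0.978, edgeR) and -0.55 with vehicle (adjusted p = 0.452).

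The T3 effect within each line was tested over all genes. It comes from the same libraries whose means chose the members, and a high or low ratio with T3 was part of the choice, so the direction of the members' T3 effects is not independent of it and the counts are a description. In TRB cells 17 of the 59 members rose with T3, 8 fell and 34 were not called, against 22.4% of all tested genes called higher and 21.9% called lower. Of the 41 members higher in TRB, 16 rose, 3 fell and 22 were not called, with a median log2 fold change of 0.12. Of the 18 lower in TRB, 1 rose, 5 fell and 12 were not called, with a median of -0.20; the median of all genes was 0. With counts thinned to the smallest library 19 members were called in TRB cells, against 25 at full depth; the share of MT-RNR2, which also moved with T3, was not tested for its part.

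In EV cells 3 members rose with T3, 1 fell and 55 were not called, against 2.84% of all tested genes called higher and 1.7% called lower. KLK7 rose by 1.25 ± 0.31 on the log2 scale (SE, adjusted p = 0.0062, edgeR), KLK8 by 1.02 ± 0.23 (adjusted p = 0.00237) and ALPP by 0.31 ± 0.08 (adjusted p = 0.0123). INHBA had a log2 fold change of -0.51 ± 0.14 (adjusted p = 0.0139). The calls of ALPP and INHBA were lost with DESeq2 (adjusted p = 0.103 for each). ALPP also lost it without EV T3 replicate 3 (adjusted p = 0.0552, edgeR) or EV vehicle replicate 2 (0.136), and INHBA without EV T3 replicate 2 (0.114) or EV vehicle replicate 3 (0.209). Without EV T3 replicate 1, the library low in MX1 and BST2, 7 members were called in EV cells, with MX1 (0.37, adjusted p = 2e-08), BST2 (0.52, adjusted p = 8.46e-05) and OAS2 (0.28, adjusted p = 0.0303) added as higher. With that library they were at 0.23, 0.35 and 0.14, and not called in the main fit. BST2 was called with that library kept when a replicate block was added (adjusted p = 0.0228, edgeR) or the count filter was dropped (adjusted p = 0.00466, edgeR).

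In TRB cells KLK8 rose by 3.65 ± 0.08 (log2, SE, adjusted p = 2.48e-47, edgeR), C2orf72 by 2.13 ± 0.07 (adjusted p = 1.42e-37), KLK7 by 2.57 ± 0.12 (adjusted p = 4.3e-30) and CPE by 2.61 ± 0.13 (adjusted p = 9.28e-29). TMEM63C rose by 2.08, LBP by 2.07, FGG by 1.83, MUCL1 by 1.69 and STON2 by 1.64, each with an SE of at most 0.17. The other 7 that rose were SLC12A7, KCNMA1, OLFM2, NCKAP5, BMP7, RP11-275F13.1 and DIRAS3, by 0.41 to 1.32. Of the 8 members with the highest ratios with vehicle, STON2, LBP, KLK7, CPE and TMEM63C rose with T3 in TRB cells, whereas VGLL3 (-0.30 ± 0.21, adjusted p = 0.255), MYEF2 (-0.34 ± 0.23, adjusted p = 0.245) and ZNF711 (-0.31 ± 0.19, adjusted p = 0.19) were not called.

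The 3 members higher in TRB that fell with T3 in TRB cells were CGNL1 (-1.06 ± 0.15, adjusted p = 4.12e-09), POF1B (-0.58 ± 0.23, adjusted p = 0.0332) and STAC2 (-0.24 ± 0.09, adjusted p = 0.025). Among members lower in TRB, INHBA (-1.70 ± 0.24, adjusted p = 6.78e-09), GFI1 (-1.54 ± 0.46, adjusted p = 0.00416), OLFM4 (-1.39 ± 0.22, adjusted p = 1.55e-07), IL7R (-1.25 ± 0.43, adjusted p = 0.0125) and PTGER4 (-0.63 ± 0.20, adjusted p = 0.00808) fell with T3 in TRB cells, and MX1 rose (0.52 ± 0.16, adjusted p = 0.0273). MX1 lost the call with any 1 TRB library left out (adjusted p = 0.05 to 0.0775, edgeR), POF1B without TRB T3 replicate 3 or any 1 TRB vehicle library (0.051 to 0.134), and STAC2 without TRB T3 replicate 2 or TRB vehicle replicate 2 or 3 (0.0612 to 0.189). Without TRB vehicle replicate 2, GFI1 (adjusted p = 0.062), IL7R (0.111), PTGER4 (0.15) and RP11-275F13.1 (0.135) were not called either. IL7R also lost the call without TRB T3 replicate 2 (adjusted p = 0.0838, edgeR), PTGER4 without TRB T3 replicate 3 (0.0663), and DIRAS3 without TRB T3 replicate 1 (0.0513) or TRB vehicle replicate 3 (0.0732). With DESeq2 the calls of POF1B (adjusted p = 0.146), STAC2 (0.11), DIRAS3 (0.0594) and RP11-275F13.1 (0.0812) in TRB cells were lost. With thinned counts those 4 and GFI1 (adjusted p = 0.0693, edgeR), IL7R (0.375, with a log2 fold change of -0.76) and PTGER4 (0.186) were not called.

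**Figure D4:**
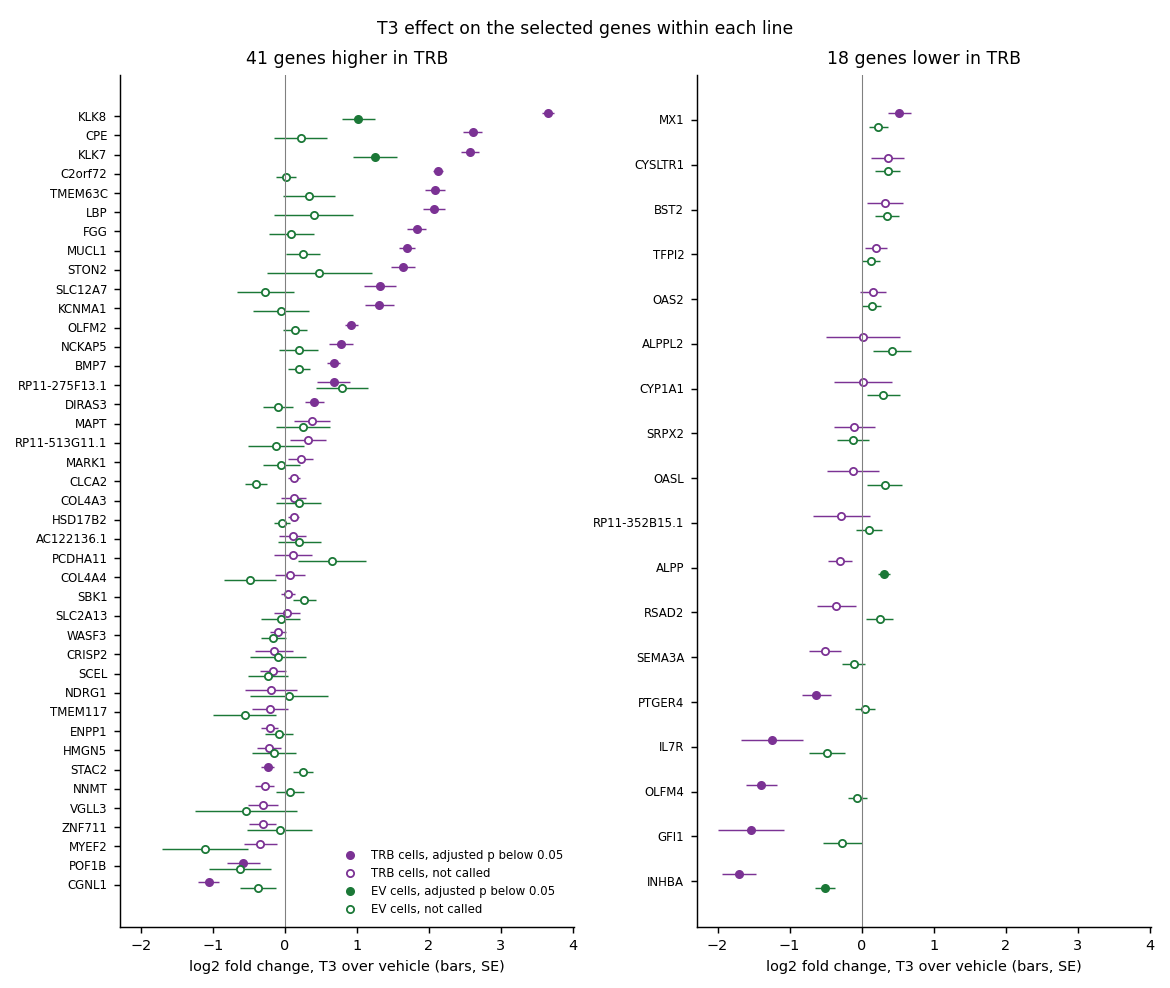
Log2 fold change, T3 over vehicle, with SE for each of the 59 selected genes in TRB cells (purple) and EV cells (green); filled points have an adjusted p below 0.05 in edgeR. KLK8, at 3.65 in TRB cells and 1.02 in EV cells, is the highest in TRB cells, and 55 of the 59 are not called in EV cells.

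The size of the TRB over EV ratio was thus not the same in both treatments for every member. It was at least 2-fold larger with T3 for 10 of the 41 genes higher in TRB, led by KLK8 (6.02 times), CPE (5.09 times) and C2orf72 (4.44 times), and within 1.5-fold for 25. Among the 18 genes lower in TRB the ratio was at least 2-fold smaller with T3 for GFI1, OLFM4 and INHBA, and within 1.5-fold for 11. Whether the T3 effect differed between the lines was not tested, since the rule used both ratios.

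The interferon members belonged to a wider group. Of 28 tested genes of a list of type I interferon-stimulated genes, 18 were lower and 1, ISG20, higher in TRB with T3, where 19.7% of all tested genes were lower, and 19 were lower with vehicle, where 7.4% were (edgeR, adjusted p below 0.05). The remaining 9 were not called in either direction with vehicle. The 5 members in the list were selected on these contrasts; of the other 23 genes, 13 were lower with T3 and 14 with vehicle. The median log2 fold change of these 23 was -0.42 with T3 and -0.43 with vehicle, and over all 28 it was -0.57 and -0.51. Besides the members, XAF1 was lower (-0.86 with T3, -1.37 with vehicle), as were HERC5 (-0.66 with T3, -0.88 with vehicle) and DDX60 (-0.42 with T3, -0.75 with vehicle). SAMD9L had -0.19 with T3 (adjusted p = 0.171, edgeR) and -1.14 with vehicle (adjusted p = 1.34e-07), and PARP14 had 0.10 with T3 (adjusted p = 0.0526) and -0.54 with vehicle (adjusted p = 5.94e-13); whether these differed between treatments was not tested. CMPK2, which lies 0.8 kb from RSAD2, had -1.22 with T3 and -0.32 with vehicle (adjusted p = 0.211). Without EV T3 replicate 1, 20 were lower with T3, and the range over each library left out was 16 to 20 with T3 and 17 to 20 with vehicle.

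**Figure D5:**
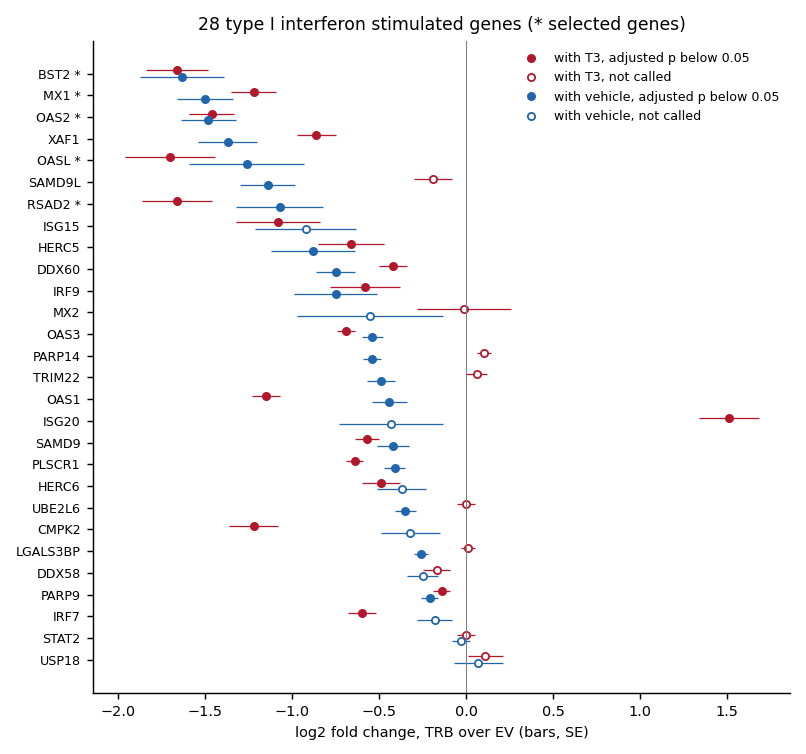
Log2 fold change, TRB over EV, with SE for 28 type I interferon-stimulated genes, with T3 (red) and vehicle (blue), ordered by the vehicle value; filled points have an adjusted p below 0.05 in edgeR and asterisks mark the 5 selected genes. Most genes lie below 0 in both treatments, and ISG20 stands apart at 1.51 with T3.

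Few members belonged to the other lists. DIRAS3 was the only member among 13 tested imprinted genes, of which 2 were called higher and 5 lower in TRB with T3 and 2 and 2 with vehicle. STON2 was the only member among 28 tested genes of stonin and AP-2 endocytosis, of which 7 were higher and 6 lower with T3, and 1 and 2 with vehicle, with medians of -0.01 and 0.01. No member belonged to a list of 20 tested thyroid hormone responsive genes, of which 13 were higher and 4 lower in TRB with T3, and 2 and 5 with vehicle. That list includes THRB, called higher both times and left out by the rule. THRSP averaged 93.3 in TRB and 4.67 in EV cells with T3, but 7.0 and 1.67 with vehicle, under the level of 20. Of all tested genes, 21.0% were called higher and 19.7% lower with T3, and 7.86% and 7.4% with vehicle.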

How the data were processed

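Total RNA from the 12 libraries was made into libraries with the NEBNext Ultra II RNA kit, per the labels' protocols. Per the submitters' processing notes, CASAVA 1.7, STAR 2.7, HTSeq 0.10, DESeq2 and build hg38 were used; the annotation and strand setting are not given in the sources used here. Raw gene counts in whole numbers were deposited for each library (31.87 to 39.24% of each file's counts were in rows that name no gene and were left out) and 1 table of normalized values, a score that equals each library's counts times 1 factor, rounded to whole numbers. That table chose and describes the members.

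The counts were tested with edgeR 4.0.16 (R 4.3.3; filterByExpr, minimum 10 and total 15; TMM; 1 fit of 4 group means, 8 residual degrees of freedom; quasi-likelihood test, two-sided, Benjamini-Hochberg over 14549 genes), checked on simulated counts. All 59 members passed the filter. Positions are from GENCODE v29 and matched 88.7% of tested genes. TRB over EV tests of single members are not reported, and 1 further item is not reported here. The members and lists were chosen with earlier results of these data known. Genes named with tests are those in shared loci, with the 8 highest and 8 lowest ratios, nearest the threshold, called for T3 in both lines, with the 6 smallest p for T3 in TRB cells, or in a list; other members are named so that all are accounted for, and non-members after their values were seen. Intervals cover counting and library spread only. DESeq2 1.42.0, other size factors, no filter, thinned counts, a replicate block and each library left out were tried.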

Additional observations from a re-analysis of the deposited data

Results flagged for a closer look

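STAC2, a member higher in TRB that encodes an adaptor of calcium channels, had a T3 over vehicle log2 difference of normalized means of -0.24 in TRB cells and 0.26 in EV cells. It stood out by the order of its libraries. In TRB cells every T3 library lay below every vehicle library. In EV cells every T3 library lay above every vehicle library. The share of all genes separated in this way was not computed, so nothing is read from the separation. STAC2 had 193, 175 and 192 normalized counts in TRB cells with T3, against 201, 218 and 241 in TRB cells with vehicle, and 77, 86 and 87 in EV cells with T3, against 68, 67 and 74 in EV cells with vehicle. The edgeR log2 fold change was -0.24 ± 0.09 in TRB cells (SE, adjusted p = 0.025, but 0.11 with DESeq2 and not called in 3 of the fits that left out 1 library) and 0.25 ± 0.14 in EV cells (adjusted p = 0.391). The difference between the lines was not tested.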

How the results depend on the processing

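The number of selected genes followed the thresholds: 206 at a ratio of 1.5, 19 at a ratio of 3, 96 with the level at 10 and 32 with it at 50, against 59, and 55 to 66 with 1 library left out. The members in shared loci ranged from 6 to 10. Members called for T3 in TRB cells numbered 18 to 27 with 1 library left out, against 25. Members called in EV cells numbered 2 with DESeq2 and 3 to 7 with 1 library left out (7 without EV T3 replicate 1), against 4. Neighbours called in the member's direction both times numbered 23 with DESeq2, 23 with thinned counts, 20 within 0.5 Mb, 9 within 0.1 Mb and 24 to 38 with 1 library left out, against 36. No value changed sign in a call: of the gene and setting pairs, 2037 kept their side of the threshold, 42 lost the call and 14 gained it. The cause was not tested beyond what fewer libraries, counts or genes imply.

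Deviations of same-numbered libraries from their group means had correlations of -0.143 to 0.112 over the tested genes. Counting noise in genes with few counts also pulls such values toward 0, so they cannot show whether the numbers pair samples. With the replicate block 25 members were called for T3 in TRB cells, 5 in EV cells and 38 neighbours. Low EV counts limit the ratios of STON2, VGLL3, LBP and MYEF2. PCDHA11, ZNF711 and CPE had 13, 17 and 19 raw counts summed over the 3 EV vehicle libraries, so their ratios are limited too. The same holds for other members higher in TRB, such as KLK7 with 22. Low TRB counts likewise limit the ratios of ALPPL2, GFI1, IL7R, CYP1A1, OASL and RP11-352B15.1. These had 13 to 37 raw counts summed over the 3 TRB libraries of a treatment, which also limits the T3 effects of GFI1 and IL7R in TRB cells.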
